A study of Mus musculus with 8 samples.

Results

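The 10 genes described here encode the 4 muscle actins (Acta1, Acta2, Actc1 and Actg2), the smooth muscle proteins calponin 1 (Cnn1), transgelin (Tagln), smoothelin (Smtn) and synaptopodin 2 (Synpo2), and the transcriptional regulators serum response factor (Srf) and myocardin (Myocd). They were taken by exact gene symbol from the 23846 entries of the deposited RNA-seq table. The matching used no measured value, but the group of genes was proposed with earlier results of these data known. All 10 had a number in each of the 8 libraries and averaged 1 FPKM or more (FPKM are fragments counted per kilobase of transcript and scaled to the mapped fragments of a library), so all 10 were among the 12629 entries tested.

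Whole hearts were dissected from mouse embryos at E11.5, and poly(A) RNA was sequenced from 4 control and 4 cKO libraries. The cKO embryos carried a floxed Ogt allele and the TnT-Cre transgene, whose cardiac troponin T promoter drives recombination in cardiomyocytes. Ogt is X-linked and encodes the enzyme that adds O-GlcNAc to nuclear and cytosolic proteins, so the cKO embryos (Ogt f/y;TnT-Cre) were male. Controls were littermates, and neither their Ogt allele, their sex nor whether they carried the Cre is given in the labels. The labels give the strain as B6, whereas the methods describe mice of mixed background. Nothing says whether a library came from 1 heart or from a pool, so p-values measure only the spread between these libraries. Endothelial, epicardial and blood cells of the heart keep an intact Ogt gene in this cross.

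Ogt itself averaged 42.1 ± 3.64 FPKM in the control libraries and 22.0 ± 1.93 FPKM in the cKO libraries (mean ± SD, n = 4 each), and the groups did not overlap. FPKM summed to between 539037 and 638014 in a control library and to between 562691 and 597833 in a cKO library. The sequencing depth is unknown from these values. Cardiomyocyte markers were abundant in every library, with Tnnt2 at 2415 to 3021 FPKM in control and 2335 to 2595 FPKM in cKO hearts.

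SRF binds a short DNA element called the CArG box, which lies upstream of many muscle and cytoskeletal genes and of Srf itself. Alone SRF activates weakly, and its partners set which targets respond. Myocardin, made in cardiac and smooth muscle, and the actin-regulated MRTF proteins (Mkl1 and Mkl2) drive contractile targets, while the ternary complex factors such as ELK1 drive growth-response targets. Muscle actins are near-identical proteins that build thin filaments. Cardiac alpha-actin predominates in the heart, skeletal alpha-actin accompanies it, and smooth muscle alpha-actin and transgelin are made transiently by embryonic cardiomyocytes as well as by smooth muscle.

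Promoter windows from RefSeq (GRCm38.p6, the assembly also called mm10), running from 250 bases before to 50 bases after the annotated start and read 5′ to 3′ on the gene's strand, were found for 7 of the 10 genes; Actg2, Tagln and Myocd had no entry. Printed here are those of the 3 abundant actins, of which only Acta2 was lower in cKO hearts, of Srf, which was lower too, and of Cnn1, the member with the largest difference. Capitals mark CArG boxes, that is CC, then 6 bases of A or T, then GG, and boxes in which 1 of those 6 bases is G or C. The second, looser form was added after the windows had been read. The windows lie at chr19:34255324-34255623 (Acta2, minus strand), chr8:123894726-123895025 (Acta1, minus strand), chr2:114052826-114053125 (Actc1, minus strand), chr17:46556113-46556412 (Srf, minus strand) and chr9:22099003-22099302 (Cnn1, plus strand).
Acta2: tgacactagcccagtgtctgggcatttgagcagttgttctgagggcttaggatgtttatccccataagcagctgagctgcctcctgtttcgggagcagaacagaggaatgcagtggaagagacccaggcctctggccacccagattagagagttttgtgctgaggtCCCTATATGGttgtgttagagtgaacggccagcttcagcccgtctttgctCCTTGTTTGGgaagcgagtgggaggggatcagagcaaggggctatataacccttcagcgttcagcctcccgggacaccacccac
Acta1: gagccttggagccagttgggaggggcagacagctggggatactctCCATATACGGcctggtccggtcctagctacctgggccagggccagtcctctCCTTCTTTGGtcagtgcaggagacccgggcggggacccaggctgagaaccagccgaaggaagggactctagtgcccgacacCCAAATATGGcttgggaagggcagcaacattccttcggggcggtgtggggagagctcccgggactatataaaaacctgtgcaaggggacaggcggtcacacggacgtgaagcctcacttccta
Actc1: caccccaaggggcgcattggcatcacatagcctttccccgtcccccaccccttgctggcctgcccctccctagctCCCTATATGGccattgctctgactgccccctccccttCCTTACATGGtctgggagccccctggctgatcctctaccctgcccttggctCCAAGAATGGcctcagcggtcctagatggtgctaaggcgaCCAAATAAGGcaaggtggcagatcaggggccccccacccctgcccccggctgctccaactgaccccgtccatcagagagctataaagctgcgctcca
Srf: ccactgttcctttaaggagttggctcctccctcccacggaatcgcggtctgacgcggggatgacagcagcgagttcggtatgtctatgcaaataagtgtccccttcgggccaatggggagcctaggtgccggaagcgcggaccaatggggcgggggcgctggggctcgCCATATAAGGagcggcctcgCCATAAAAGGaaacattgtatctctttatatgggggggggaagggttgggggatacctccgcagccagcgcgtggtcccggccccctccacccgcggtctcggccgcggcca
Cnn1: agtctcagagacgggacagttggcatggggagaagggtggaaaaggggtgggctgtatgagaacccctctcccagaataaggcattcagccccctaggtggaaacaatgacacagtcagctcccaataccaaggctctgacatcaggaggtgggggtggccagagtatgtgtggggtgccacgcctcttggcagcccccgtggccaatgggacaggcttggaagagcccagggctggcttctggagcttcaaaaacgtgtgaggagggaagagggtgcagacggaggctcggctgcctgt

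The strict CArG box was found in 535 of 32851 promoter windows of this length (1.63%, both strands), and in 3 of the 7 windows examined here. Acta1 had 1 beginning 73 bases before the start, Actc1 had 1 beginning 47 bases before it, and Srf had 2, at 82 and 62 bases. The looser form, with or without a strict box beside it, occurred in 8.5% of all windows, and either form in 9.98%. Acta2 had 2 of these, beginning 84 and 34 bases before the start, Acta1 had 2 (at 205 and 154 bases) and Actc1 had 3 (at 175, 138 and 87 bases). The windows of Cnn1, Smtn and Synpo2 held neither form, which says only that these letters are not in that stretch. A match to the MEF2 site, another A- and T-rich element of muscle promoters, occurred in 3.19% of all windows and, of the 7, in that of Synpo2. The TATAAA element, carried on one strand or the other by 13.6% of all windows, began 7 bases before the start in Acta1 and 33 bases after it in Actc1. On the other strand it lay 233 bases before the start in Synpo2, inside the MEF2 match, and 38 bases before it in Srf. Only these exact letters were searched, so the tatataa of the Acta2 window was not counted. Distances are from the annotated start, and the start used in these hearts was not measured. CANNTG, the E box bound by basic helix-loop-helix factors, is too frequent to single out any gene, with a match in 72.3% of all windows. These are letter matches, and binding was not measured in these hearts.

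**Figure D1:**
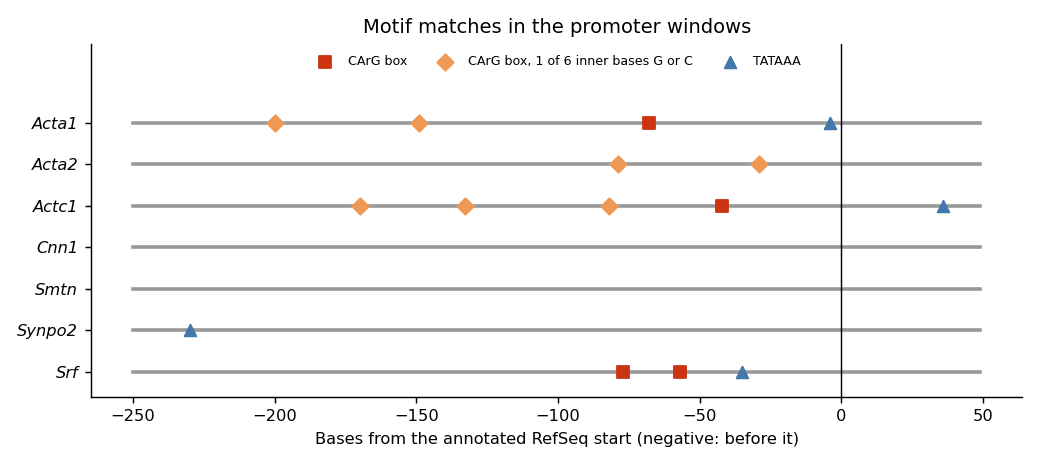
Positions of motif matches in the 7 promoter windows found, each a grey line from 250 bases before to 50 bases after the annotated start (x axis, bases from the start; symbols stand at the centre of a match). Squares are strict CArG boxes, diamonds are boxes with 1 of 6 inner bases G or C and triangles are TATAAA on either strand. Acta1, Acta2 and Actc1 each hold 2 or more boxes of either form, Srf holds 2 strict boxes, and Cnn1, Smtn and Synpo2 hold none.

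Acta2, Cnn1, Smtn, Synpo2, Srf and Myocd were lower in cKO hearts, and none of the 10 genes was called higher. Acta1, Actc1, Actg2 and Tagln did not pass the test. Calls required an adjusted p under 0.05 (limma on log2(FPKM + 0.5), Benjamini-Hochberg adjustment), and each log2 difference given is cKO minus control on that scale. By the same rule 30.7% of all entries tested were called, 14.9% lower and 15.9% higher. The groups did not overlap for the 6 lower genes, as for 32.8% of all entries in either direction and 16.3% in that direction. The median difference over all entries tested was 0.02, the median size of a difference was 0.15 and the median standard error was 0.07. In whole hearts, fewer cells of a type and less RNA per cell cannot be told apart.

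**Figure D2:**
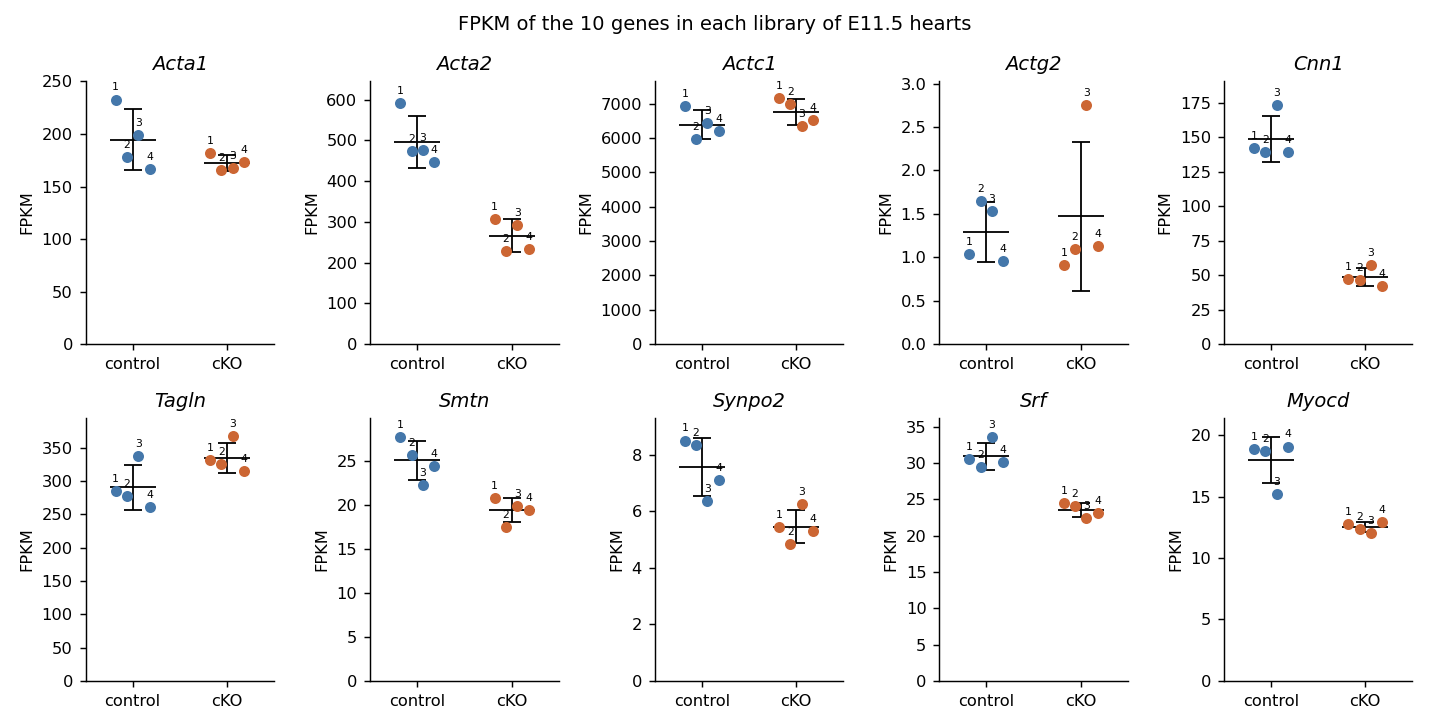
FPKM (y axis, linear and from 0) of the 10 genes in each control (blue) and cKO (orange) library, numbered 1 to 4; horizontal bars are means and error bars are 1 SD. Acta2, Cnn1, Smtn, Synpo2, Srf and Myocd have every cKO library below every control library, and the other 4 genes overlap. The separation is narrow for Synpo2 (6.24 FPKM in cKO library 3 against 6.36 FPKM in control library 3).

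Among the 4 actins, Acta2 was lower in cKO hearts and the others were not called. Acta2, smooth muscle alpha-actin (chromosome 19, 34240336 to 34255373, 9 exons), was at 591, 475, 475 and 448 FPKM in control libraries 1 to 4 and at 308, 228, 293 and 235 FPKM in cKO libraries 1 to 4. The highest cKO library was thus well under the lowest control library, although the spread within each group was wide, with a coefficient of variation of 12.8% in control and 15.3% in cKO. The means of 497 ± 63.8 and 266 ± 40.7 FPKM (SD, n = 4 each) put cKO hearts at 53.5% of control. Its log2 difference was -0.91 (standard error 0.13, 95% interval -1.19 to -0.62, limma adjusted p = 0.00115), and the exact two-sided permutation test gave p = 0.0286, the smallest that 4 against 4 allows. Of all entries tested, 113 had a log2 difference as low as that of Acta2 or lower.

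Actc1, cardiac alpha-actin (chromosome 2, 114047289 to 114052811, 7 exons), was the fourth most abundant entry of 23521 in both groups. Its control libraries had 6938, 5963, 6434 and 6205 FPKM and its cKO libraries 7164, 6995, 6346 and 6523 FPKM. The groups overlapped, and the difference between the means of 6385 ± 416 and 6757 ± 386 FPKM (SD, n = 4 each) did not pass the test (log2 difference 0.08, 95% interval -0.14 to 0.31, limma adjusted p = 0.561; exact permutation p = 0.229). The sign of this small difference turned to -0.24 under quantile normalization, again without passing (adjusted p = 0.442). An interval this narrow leaves out a fall of the size seen in Acta2.

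Acta1, skeletal alpha-actin (chromosome 8, 123891758 to 123894775, 7 exons), had 233, 178, 199 and 167 FPKM in control and 182, 165, 167 and 173 FPKM in cKO libraries. Control library 1 was the highest of the control libraries for Acta1, as it was for Acta2 and Actc1, and control library 4 lay within the cKO range. For Acta1 the log2 difference was -0.16 (standard error 0.10, 95% interval -0.39 to 0.06, limma adjusted p = 0.245; exact permutation p = 0.229). Of the 50-base stretches of the longest Acta1 transcript, 2.22% also occur in other genes, among them the cytoplasmic actins Actb and Actg1, against 0.352% for Acta2 and 0% for Actc1 and Actg2. The methods name Cuffdiff2 for differential expression, and how such reads were assigned is not given in the sources used here. Shared reads could thus affect the level of Acta1 more than those of the other muscle actins.

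Actg2, smooth muscle gamma-actin of the gut and bladder (chromosome 6, 83512909 to 83536251, 9 exons), was close to the filter limit. The control libraries had 1.04, 1.65, 1.53 and 0.954 FPKM and the cKO libraries 0.913, 1.09, 2.75 and 1.13 FPKM. The groups overlapped, with cKO library 3 above all others. The log2 difference was 0.07 with a wide interval of -0.52 to 0.67 (limma adjusted p = 0.857), and leaving out single libraries moved it between -0.20 and 0.21, so no direction can be given for Actg2.

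Ratios between actins in the same library are not altered by a scaling factor applied to the whole library. Quantile normalization is not of that kind, and under it the log2 difference was -0.87 for Acta2 and -0.24 for Actc1. They are given as descriptions, without a test. The log2 ratio of Acta2 to Actc1 was -3.55, -3.65, -3.76 and -3.79 in control libraries 1 to 4 and -4.54, -4.94, -4.44 and -4.80 in cKO libraries 1 to 4. The difference of the means was -0.99, and the groups did not overlap. Acta2 to Acta1 had a mean of 1.36 ± 0.08 in control and 0.62 ± 0.20 in cKO libraries (SD, n = 4 each), also without overlap, a difference of -0.74. Acta1 to Actc1 was -5.05 ± 0.13 and -5.29 ± 0.08 (SD, n = 4 each), a difference of -0.25, and the nearest libraries, control library 4 at -5.22 and cKO library 4 at -5.23, almost met. In the sum of the 4 muscle actins, which was 7078 ± 500 FPKM in control and 7196 ± 395 FPKM in cKO hearts (SD, n = 4 each), Acta2 made up 7.01% and 3.70%. Actc1 made up 90.2% and 93.9% and Acta1 2.74% and 2.39%, and Actg2 0.0185% and 0.0209%. The sums differed by less than their SDs, and the shares of Acta2 and Actc1 did not overlap between the groups.

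**Figure D3:**
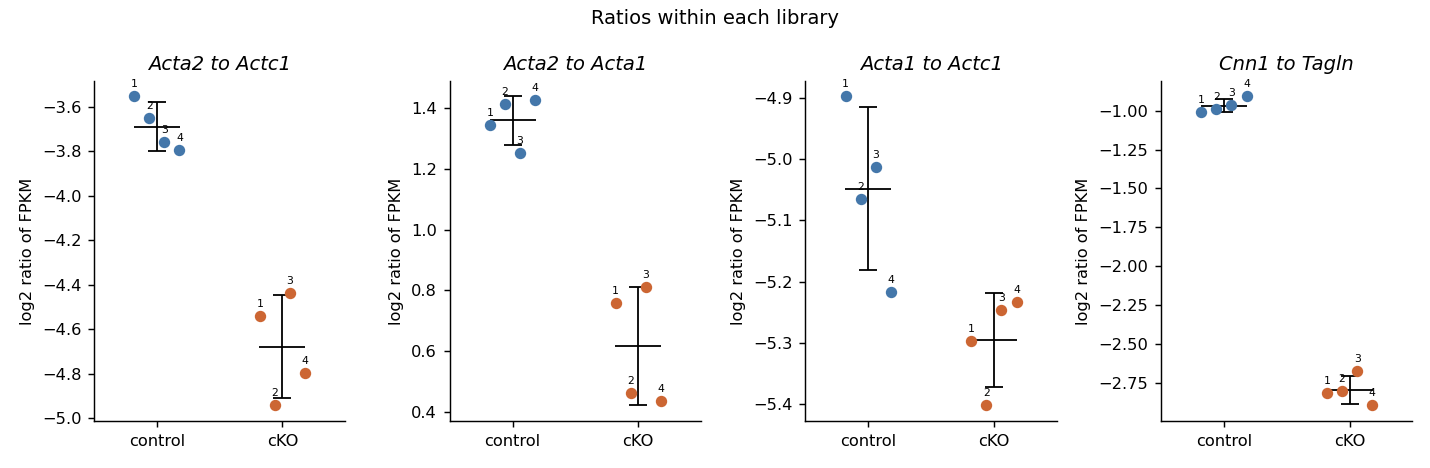
Log2 ratio of FPKM between pairs of genes within each library (y axes, each with its own range and not from 0), for control (blue) and cKO (orange) libraries numbered 1 to 4, with means and 1 SD. Acta2 to Actc1, Acta2 to Acta1 and Acta1 to Actc1 are all lower in every cKO library than in every control library, with mean differences of -0.99, -0.74 and -0.25, and Cnn1 to Tagln, a pair chosen after its values were seen, one of -1.83.

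Of the 4 smooth muscle protein genes, Cnn1, Smtn and Synpo2 were lower and Tagln was not called. Cnn1, smooth muscle calponin (chromosome 9, 22099253 to 22109221, 7 exons), binds actin and restrains myosin ATPase in contractile smooth muscle. Its control libraries had 142, 139, 173 and 139 FPKM and its cKO libraries 47.2, 46.8, 57.5 and 42.3 FPKM. The highest cKO library was 81.6 FPKM below the lowest control library. The means of 148 ± 16.6 and 48.4 ± 6.42 FPKM (SD, n = 4 each) differed 3.06-fold, with a log2 difference of -1.61 (standard error 0.11, 95% interval -1.85 to -1.37, limma adjusted p = 5.69e-05; exact permutation p = 0.0286). Only 42 of the entries tested had a difference as low as this or lower. Cnn1 passed from place 536 to place 1630 in the order of mean FPKM over 23521 entries.

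Tagln, transgelin or SM22, is a small calponin-related actin-binding protein that is a classic target of myocardin (chromosome 9, 45929628 to 45936058, 5 exons). Its control libraries had 285, 277, 338 and 261 FPKM and its cKO libraries 332, 326, 367 and 315 FPKM. Control libraries 1, 2 and 4 lay below all cKO libraries, and control library 3 lay among them. The means were 290 ± 33.2 and 335 ± 22.6 FPKM (SD, n = 4 each), and the log2 difference of 0.21 (standard error 0.09, 95% interval 0.01 to 0.41) was not called (limma adjusted p = 0.105; exact permutation p = 0.114). It was called higher without control replicate 3 (0.29, adjusted p = 0.00776), under quantile normalization (0.20, adjusted p = 0.0392), with haemoglobin genes removed (0.22, adjusted p = 0.0146) and with array weights (0.25, adjusted p = 0.00427). A fall of Tagln like that of Acta2 lies outside the interval. The Tagln entry overlaps Pcsk7 on the other strand, which was at 8.71 ± 0.355 and 9.17 ± 0.141 FPKM (SD, n = 4 each), and whether counting used strand is not given in the sources used here.

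Cnn1 and Tagln, which differed in opposite directions between the group means, varied alike within the groups. Both were highest in library 3 of either group, and after the group means were subtracted their log2 values had a Pearson r of 0.92 over the 8 libraries, which share normalization. The log2 ratio of Cnn1 to Tagln, a pair chosen after its values were seen, was -1.01, -0.99, -0.96 and -0.91 in control libraries 1 to 4. In cKO libraries 1 to 4 it was -2.81, -2.80, -2.67 and -2.89. The difference of -1.83 between the means stands against an SD of 0.04 in control and 0.09 in cKO libraries. Acta2 to Tagln, chosen in the same way, passed from 0.78 to -0.34, so that Tagln stood above Acta2 in every cKO library and below it in every control library.

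Smtn, smoothelin, marks contractile smooth muscle (chromosome 11, 3517522 to 3539292, 22 exons in the longest coding transcript). The control libraries had 27.7, 25.7, 22.3 and 24.4 FPKM and the cKO libraries 20.8, 17.5, 19.8 and 19.4 FPKM. All cKO libraries were lower, by 1.53 FPKM between the nearest libraries. Smtn had a log2 difference of -0.36 (standard error 0.08, limma adjusted p = 0.00779; exact permutation p = 0.0286), which leaves 77.4% of the control mean.

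Synpo2, synaptopodin 2 or myopodin, bundles actin at the Z-disc of striated muscle and in smooth muscle (chromosome 3, 123076519 to 123236149). Control libraries 1 and 2 had 8.49 and 8.32 FPKM, and control libraries 3 and 4 had 6.36 and 7.09 FPKM. The cKO libraries had 5.45, 4.84, 6.24 and 5.30 FPKM. Only 0.123 FPKM separated control library 3 from cKO library 3. The log2 difference was -0.43 (standard error 0.10, limma adjusted p = 0.0129; exact permutation p = 0.0286).

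Srf and Myocd were both lower, with smaller log2 differences than those of Acta2 and Cnn1. Srf (chromosome 17, 46546839 to 46556162, 7 exons) had 30.5, 29.5, 33.6 and 30.1 FPKM in control and 24.5, 24.1, 22.4 and 23.1 FPKM in cKO libraries. Its groups were separated by 5.00 FPKM, against an SD of 1.84 in control and 0.959 in cKO. The log2 difference was -0.39 (standard error 0.05, 95% interval -0.51 to -0.27, limma adjusted p = 0.00111; exact permutation p = 0.0286), so that cKO hearts kept 76.0% of the control mean.

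Myocd (chromosome 11, 65176571 to 65269989, 14 exons) had 18.9, 18.7, 15.2 and 19.1 FPKM in control and 12.8, 12.4, 12.0 and 12.9 FPKM in cKO libraries. The cKO libraries were nearly alike, with a coefficient of variation of 3.20% against 10.3% in control, where library 3 stood below the other control libraries. Myocd had a log2 difference of -0.50 (standard error 0.07, 95% interval -0.66 to -0.33, limma adjusted p = 0.0016; exact permutation p = 0.0286), at 69.8% of the control mean. The MRTF genes Mkl1 and Mkl2 were not called, with log2 differences of 0.09 and 0.12 (limma adjusted p = 0.447 and 0.380).

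On the FPKM scale, which corrects for length, the 10 genes spanned from Actc1 at 6385 FPKM to Actg2 at 1.29 FPKM in control hearts. The order was Actc1, Acta2, Tagln, Acta1, Cnn1, Srf, Smtn, Myocd, Synpo2 and Actg2. In cKO hearts Tagln and Acta2 changed places and the rest of the order held. Neighbours such as Tagln and Acta1 in control hearts (290 ± 33.2 against 194 ± 29.0 FPKM) lay further apart than their SDs, as did Srf and Smtn (31.0 ± 1.84 against 25.0 ± 2.26 FPKM).

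The library descriptions carry the prefixes OGF355 and OGF373, whose meaning is not stated, while the value columns all carry OGF373. Within OGF355 (2 control libraries, 1 cKO) the log2 differences were -0.78 for Acta2, -1.56 for Cnn1, -0.35 for Smtn, -0.58 for Synpo2, -0.29 for Srf and -0.54 for Myocd. Within OGF373 (2 control libraries, 3 cKO) they were -0.88, -1.67, -0.30, -0.28, -0.45 and -0.44 in the same order. The direction was the same in both parts for these 6 genes and for Acta1, Actc1 and Tagln, and opposite for Actg2 (-0.36 and 0.25). With the OGF373 libraries alone Acta2, Cnn1 and Srf passed the test, and Smtn, Synpo2 and Myocd did not (limma adjusted p = 0.0689, 0.159 and 0.0528). With these fewer libraries the calls over all entries also fell, from 3879 to 1465. Control library 3, the lowest control library for Smtn, Synpo2 and Myocd, is among them. Why these 3 genes did not pass there was not tested.

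**Figure D4:**
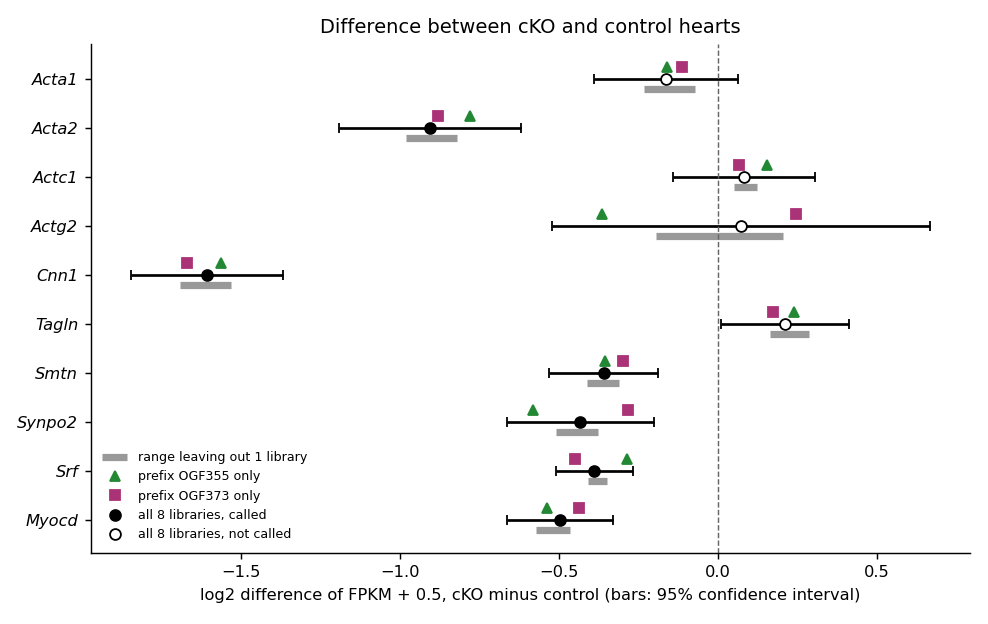
Log2 difference of FPKM + 0.5, cKO minus control (x axis), for the 10 genes: circles with 95% confidence intervals from all 8 libraries (filled where called), grey bars for the range when single libraries are left out, triangles and squares for the libraries of 1 description prefix. Cnn1 (-1.61) and Acta2 (-0.91) lie far to the left of the other genes, and Tagln (0.21) lies on the right.

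Leaving out each library in turn kept all 6 genes lower and called. The log2 difference of Cnn1 then ranged from -1.69 to -1.53, that of Acta2 from -0.98 to -0.82, that of Srf from -0.41 to -0.35 and that of Myocd from -0.57 to -0.47. For Smtn and Synpo2 the largest limma adjusted p in these fits was 0.0257 and 0.0388.

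Beyond these 10 genes, lists of other genes tied to SRF held called genes in both directions. Of 92 tested genes in 5 lists, 10 were lower and 11 were higher, that is 22.8%, against 30.7% of all entries, and their median log2 difference was 0.06 against 0.02. Leaving out control replicate 3 gave 18 higher, and leaving out control replicate 1, control replicate 2, cKO replicate 2 or cKO replicate 4 gave 6. In a list drawn up as smooth muscle contractile targets, 5 of 29 tested genes were lower and 2 were higher, with a median of 0.05. Myl9, the regulatory myosin light chain of smooth and nonmuscle myosin, averaged 1005 FPKM in control and 621 FPKM in cKO hearts (log2 difference -0.69, limma adjusted p = 0.00132), the nearest of these to Acta2 in size. Tpm2, beta-tropomyosin, averaged 57.3 and 43.4 FPKM (-0.40, adjusted p = 0.000798) and Fhl1, a LIM protein of striated muscle, was lower as well (-0.29). Pdlim7 and Csrp1, named after their values were seen, were the other 2. Casq2, in this list although it encodes the cardiac calsequestrin, was higher (29.4 to 45.4 FPKM, log2 difference 0.63, limma adjusted p = 0.00254). The integrin subunit Itga1, named after its values were seen, was higher too. When control replicate 1, control replicate 2, cKO replicate 2, cKO replicate 3 or cKO replicate 4 was left out, 3 were lower, and 4 were higher without control replicate 3.

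Among 18 cytoskeletal targets of MRTF and SRF, 1 was lower and 5 were higher. Dstn, the actin-severing protein destrin, was the lower one (522 to 376 FPKM, log2 difference -0.47, limma adjusted p = 0.0069). Ankrd1, a stress-responsive ankyrin repeat protein of the sarcomere, was higher (409 to 688 FPKM, 0.75, adjusted p = 0.000597), and Wdr1 and Fermt2 were higher by 0.22 and 0.17. Ctgf and Tuft1, named after their values were seen, were the rest, and 2 of the list were higher when control replicate 1, control replicate 2, cKO replicate 2 or cKO replicate 4 was left out. The cytoplasmic actins Actb and Actg1 did not pass (0.09 and 0.07, adjusted p = 0.324 and 0.551). In the list of 20 cofactors and regulators, Elk1 and Mef2c were lower (-0.38 and -0.25) and Rock2 and Hopx higher (0.23 and 0.39), with a median of 0.06; Hopx is a homeodomain protein that restrains SRF. Leaving out control replicate 3 gave 4 lower, and 1 was higher when control replicate 1, control replicate 2, cKO replicate 1, cKO replicate 2 or cKO replicate 4 was left out. Of 20 cardiac targets, Smyd1, a muscle methyltransferase, was lower (-0.28) and the natriuretic peptide gene Nppb (0.96) and the small heat shock gene Hspb7 (0.21) were higher, with a median of 0.01. In that list 5 were higher and 2 were lower without control replicate 3, and 1 was higher when any library but control replicate 3 or cKO replicate 3 was left out. Of 5 tested immediate early targets of the ternary complex factors, Egr1 was lower (6.23 to 3.86 FPKM, log2 difference -0.62, adjusted p = 0.00208), with a list median of 0.11. The median was -0.05 for the 4 actins, -0.40 for Cnn1, Tagln, Smtn and Synpo2, and -0.44 for Srf and Myocd.

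**Figure D5:**
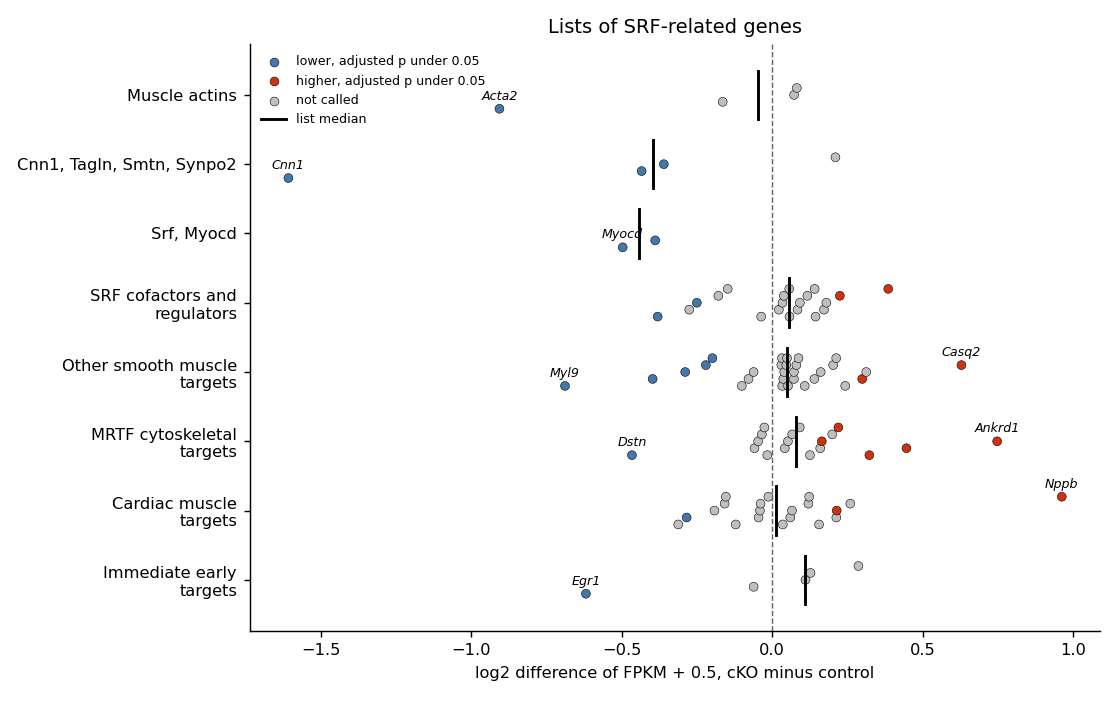
Log2 difference of FPKM + 0.5, cKO minus control (x axis), of every tested gene in the 3 groups of members and in 5 further lists of SRF-related genes (rows): blue points were called lower, red points higher, grey points not called, and black bars are list medians. The further lists centre near 0 (medians 0.01 to 0.11), with called genes on both sides, while Acta2 and Cnn1 lie apart at the left.

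Markers of cell types that could carry these transcripts were counted beside the 6 lower genes. Over all entries tested, 14.9% were called lower and 15.9% higher. Of 9 smooth muscle and mural cell markers tested outside the 10 genes, none was lower and Mcam was higher, and the summed FPKM of the list was 447 to 518 in control and 535 to 588 in cKO libraries. Most of that sum is Des, a gene that cardiomyocytes also express (290 to 368 and 345 to 385 FPKM, not called), and Mcam (104 to 109 and 136 to 151 FPKM). Cspg4 and Abcc9 had negative differences that were not called (-0.34 and -0.14; limma adjusted p = 0.150 and 0.366), and Des, Cspg4 and Abcc9 were named after their values were seen. Myh11, the myosin that defines mature smooth muscle, was under the filter, at 0.188 to 0.257 FPKM in control and 0.341 to 0.471 FPKM in cKO libraries. Of 10 cardiomyocyte markers none was called in either direction, with sums of 19300 to 24900 and 20500 to 23100 FPKM. Most of these, such as Tnnt2 and Myh6, are also in the list of cardiac targets of SRF, and Nkx2-5 is among the cofactors. Des, Lmod1, Kcnmb1 and Myh11 are likewise in the list of smooth muscle contractile targets. The marker counts are thus not separate from those of the SRF lists. Of 8 endothelial and endocardial markers, 5 were lower, among them Cdh5 and Pecam1 (sums of 280 to 313 and 242 to 260 FPKM). Of 8 epicardial markers 5 were higher, among them Wt1 and Krt19 (181 to 197 and 226 to 262 FPKM). The epicardial markers Upk3b (log2 difference 0.24), Tbx18 (0.0007) and Msln (-0.06), named after their values were seen, were not called. Of 9 markers of cushion mesenchyme and fibroblasts 1 was higher (471 to 566 and 472 to 607 FPKM), and of 6 blood markers none was called (15100 to 57500 and 30500 to 45400 FPKM). The median log2 difference was 0.24 for the cushion mesenchyme and fibroblast list, 0.27 for the epicardial and -0.22 for the endothelial list. It was 0.36 for blood, 0.01 for cardiomyocytes and 0.03 for smooth muscle and mural cells. Of 8 skeletal muscle markers only Ckm reached the filter, and it was higher (sums of 3.22 to 5.58 FPKM in control and 33.9 to 48.8 FPKM in cKO for Ckm alone), while Myod1 and Pax7 were at the floor of 0.001 FPKM in 6 of 8 libraries. Myog, under the filter and not tested, was at 0.058 to 0.129 FPKM in control and 0.171 to 0.594 FPKM in cKO libraries, without overlap. Myod1, Pax7 and Myog were named after their values were seen. Which cells of the heart, cardiomyocytes included, carried the Ckm transcripts was not tested. The part of the endothelial and epicardial differences in the results for the 10 genes was not tested.

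The genes most like Acta2 over the 8 libraries were found by Pearson r of log2 values among all entries tested of at least 200 bases. They were Suv420h2 (r = 0.998), a histone methyltransferase, Cndp2 (0.997), a dipeptidase, Ppp2r1a (0.995), a scaffold subunit of protein phosphatase 2A, Scly (0.992), selenocysteine lyase, and Rnf26 (0.992), a membrane ubiquitin ligase. All 5 were called lower in cKO hearts, with log2 differences of -0.32 (Suv420h2) to -0.60 (Cndp2), and r over both groups follows that difference as well as the order of libraries. Ranking by Spearman's rho kept 1 of these 5. Of the members, Smtn (0.95), Cnn1 (0.94), Synpo2 (0.91), Srf (0.89) and Myocd (0.88) were nearest, Acta1 was at 0.69, and Actg2 (-0.04), Actc1 (-0.31) and Tagln (-0.56) had the lowest r. The nearest members are those called lower, so their r also follows the group difference. After the group means were subtracted, r with Acta2 was 0.75 for Smtn, 0.64 for Synpo2, 0.30 for Cnn1, 0.08 for Myocd and -0.02 for Srf. These values are descriptions over 8 libraries that share a design, with no test.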

How the data were processed

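RNA was measured in 4 control and 4 cKO libraries of E11.5 hearts with a stranded mRNA kit. The authors used TopHat2 and Bowtie2 for alignment to mm10 and Cuffdiff2 for differential expression. They deposited values in FPKM, 1 column per library, for 23846 entries. Versions and annotation are not given in the sources used here. The authors' column of p-values from their own comparison was not used. Of the deposited cells, 1.32% hold a text code for a low or failed estimate, and the lowest value is 0.001. Read counts were not used here, so no count model was fitted and precision is given by the spread among 4 libraries.

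Of 23521 entries that held a number throughout, the 12629 averaging 1 FPKM or more entered limma 3.58.1 (R 4.3.3) as log2(FPKM + 0.5), with 2 group means, a variance trend and Benjamini-Hochberg adjustment over all 12629. The pseudocount understates the change of low genes. Single genes were also compared by an exact two-sided permutation test of FPKM, whose smallest p is 0.0286. The fit was tested on simulated data. Promoters, transcripts and motifs were read from RefSeq (GRCm38.p6) and GENCODE M21 with Python 3.11.15, and figures were drawn with matplotlib 3.10.9. Gene coordinates are those of the deposited entries, and exons are those of the longest coding transcript.

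The genes and lists were chosen with earlier results of these data known. The text names all 10 genes, up to 4 called genes of each list by adjusted p, up to 2 markers per cell type and the 5 genes most like Acta2; Ckm, Actb, Actg1, Mkl1 and Mkl2 and others marked in the text were named after their values were seen. Alternatives were pseudocounts of 0.1 and 1, no filter or a minimum mean of 5 FPKM, median ratio scaling, quantile normalization, haemoglobin genes removed with rescaling, no variance trend, array weights, a replicate block, the description prefix as covariate or OGF373 alone, Spearman's rho and leaving out each library.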

Additional observations from a re-analysis of the deposited data

Results flagged for a closer look

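In 70 groups of 4 libraries, the gap between the highest or lowest library and its neighbour was divided by the range and set against Dixon's critical value. It was passed 6 times, where that value is set so that chance passes it in about 1 in 20 groups. Both Actg2 entries are the same measurement in effect. In cKO library 3, Actg2 stood apart at 2.75 FPKM and made up 0.0404% of the muscle actin FPKM, above the other cKO libraries for both. Control library 3 stood apart for 4 genes. It was the highest of its group for Cnn1, at 173 FPKM, for Myl9, at 1193 FPKM, and for Hopx, at 205 FPKM, and the lowest for Myocd, at 15.2 FPKM. The calls of Cnn1 and Myocd as lower held without it.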

How the results depend on the processing

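Acta2, Cnn1 and Srf were called lower under every alternative listed, and Smtn, Synpo2 and Myocd under all but the OGF373 libraries alone, which left 3 of the 10 genes lower (limma). One gene, Tagln, was called higher under quantile normalization, with haemoglobin genes removed, with array weights and without control replicate 3 and cKO replicate 3 together, the last a setting chosen after seeing the data; when single libraries were left out, between 0 and 1 were higher and 6 were always lower. The main count of 3879 called entries was 6582 with array weights, 1465 with OGF373 alone and 2649 to 4951 when single libraries were left out. In the 5 further lists, 10 genes were lower, 6 with OGF373 alone and 8 to 14 without single libraries. In the same lists 11 were higher, 27 with array weights, 7 with the replicate block, 3 with OGF373 alone, 17 without both replicates 3 and 6 to 18 without single libraries. The cause of these shifts was not tested. Without single libraries the difference of the log2 ratio was -1.07 to -0.90 for Acta2 to Actc1, -0.30 to -0.20 for Acta1 to Actc1, -0.81 to -0.68 for Acta2 to Acta1 and 0.69 to 1.24 for Actg2 to Acta2. Whether the replicate numbers pair littermates is not known. Deviations of same-numbered libraries correlated at 0.127, 0.158, -0.0116 and 0.0128, and those of differently numbered ones at -0.123 to 0.102. These values, from 4 libraries per group, cannot decide it. Under the replicate block 3443 entries were called, and the calls of the 10 genes were the same. Actg2, near 1 FPKM, was not tested with a minimum mean of 5 FPKM, and its level limits what can be said of it.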

Other observations

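Within groups, after the group means were subtracted from log2 values, the genes that varied most like Acta2 were Patz1 (Pearson r = 0.984), Suv420h2 (0.983), Cndp2 (0.982), Athl1 (0.981) and Med25 (0.974), over 8 libraries and with no test. Between cKO and control hearts their log2 differences were -0.03, -0.32, -0.60, -0.12 and 0.30 in the same order. Those of Patz1 and Athl1 were smaller than the median size over all entries tested (0.145), and that of Med25 was opposite in sign to that of Acta2. Among the 10 genes, Smtn (0.75), Acta1 (0.68) and Synpo2 (0.64) were nearest to Acta2 in this measure, and Srf (-0.02) and Myocd (0.08) were near 0. Myocd moved opposite to Tagln (r = -0.91) and Cnn1 (r = -0.80) within groups, in libraries where control library 3 was low for Myocd and high for the other genes.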
